A study of Rattus norvegicus with 4 samples.

Results

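The genes described here are Cyp1a2, Cyp2a3, Cyp2c12, Cyp2c22 and Cyp17a1, cytochrome P450 enzymes that oxidise drugs, steroids and bile acids, in rat liver at 1 h after the bile duct was tied. They are represented by every array probe to which the platform annotation gives exactly 1 gene symbol, being one of these names. The rule found 11 probes for 5 genes, out of 1936 probes in all, with 4 probes for Cyp2c12, 3 for Cyp2c22, 2 for Cyp1a2 and 1 each for Cyp2a3 and Cyp17a1. The genes were selected on their measured operation log ratios on these same 4 arrays, which were already known, so these values are given as a description and no test is drawn from them.

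Male Sprague-Dawley rats had the common bile duct ligated, or exposed without being tied in the sham operation, and livers were taken 1 h later under ether anaesthesia, from groups of 3 animals whose RNA was mixed. Ligated and sham RNA competed on 4 two-colour cDNA arrays. On arrays 1 and 3 the dye Cy5 marked ligated RNA and Cy3 marked sham RNA, and on arrays 2 and 4 the dyes were exchanged. Each array gave 1 log ratio per probe, of a base that the sources used here do not state. Because RNA was pooled, and the labels do not say whether arrays shared an extract, errors measure the spread between arrays and not between animals. The array number limits the precision. Ratios carry no level, so the tissue could not be checked by the abundance of liver markers. In bulk liver RNA, fewer cells of a type and less RNA per cell cannot be told apart.

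A positive value is read as higher after ligation. For each array the labels put sham RNA in channel 1 and ligated RNA in channel 2, which makes this direction likely, but they do not say which channel was the numerator. With sham over ligated, every sign below would turn. The array medians as deposited were -0.88, 0.75, -0.73 and 0.87, and so followed the dye and not the operation. Each array was therefore centred on its median, and the operation estimate of a probe is its mean centred value over 4 arrays, with the dye as a separate term. Errors are standard errors (SE) of limma, most of whose size comes from a spread that limma pools over the whole array.

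Cytochrome P450 enzymes are heme proteins of the endoplasmic reticulum that insert an oxygen atom into fat-soluble substrates, with electrons passed on by P450 reductase and cytochrome b5. In liver they make drugs and steroids easier to excrete. Nuclear receptors and the aryl hydrocarbon receptor set their mRNA levels, and in rats the pattern of growth hormone secretion gives males and females different sets. CYP2C12 is the textbook female form, a steroid sulphate hydroxylase that adult males hardly express, whereas all animals here were male. CYP2C22 corresponds to mouse CYP2C70, the enzyme that makes muricholic acids, and RefSeq lists that name as a synonym. CYP1A2 oxidises caffeine and aromatic amines, CYP2A3 is best known from the airways and nose, and CYP17A1 makes androgen precursors in the gonads.

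In the RefSeq gene table of the GRCr8 assembly, Cyp2c12 and Cyp2c22 lie on chromosome 1 with 1 protein-coding gene between them, Cyp2c13, and Cyp2a3 lies beside Cyp2a1. Cyp1a2 lies beside Cyp1a1. Since cDNA probes can also bind mRNA of closely related genes, the Cyp2c12, Cyp2c22, Cyp2a3 and Cyp1a2 probes are uncertain between family members. The sequences of the probes were not used here. The promoters of Cyp2c12 and Cyp2c22 are shown because these neighbours had the lowest and the highest operation estimates of the 11 probes. Both are RefSeq sequences of GRCr8 on the minus strand, from 250 bases before to 50 after the gene start, at chr1:248676985-248677284 for Cyp2c12 and chr1:248980718-248981017 for Cyp2c22. Capitals mark matches, on either strand, to 7 searched motifs of liver factors.

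Cyp2c12: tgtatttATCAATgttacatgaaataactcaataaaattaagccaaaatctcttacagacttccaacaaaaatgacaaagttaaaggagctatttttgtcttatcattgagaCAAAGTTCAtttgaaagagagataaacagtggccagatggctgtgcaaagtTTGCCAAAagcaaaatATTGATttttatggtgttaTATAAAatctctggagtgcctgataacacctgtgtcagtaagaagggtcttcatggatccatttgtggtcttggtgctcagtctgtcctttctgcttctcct
Cyp2c22: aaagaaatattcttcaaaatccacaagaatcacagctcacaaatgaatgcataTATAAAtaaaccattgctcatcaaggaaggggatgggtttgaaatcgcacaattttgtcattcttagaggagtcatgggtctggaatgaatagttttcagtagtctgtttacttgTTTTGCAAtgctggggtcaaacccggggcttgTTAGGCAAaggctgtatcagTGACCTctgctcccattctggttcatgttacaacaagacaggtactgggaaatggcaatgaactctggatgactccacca

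The motifs were CAAAGTNCA for HNF4, ATTGAT for ONECUT factors, TTGCNNAA for C/EBP factors, AGGTCA as the single element bound by nuclear receptors, GTTAAT as the single element bound by HNF1, GCGTG as the core bound by the aryl hydrocarbon receptor, and TATAAA as the TATA box. The Cyp2c12 window held 1 HNF4 match, starting 138 bases before the gene start, a motif found in 1.24% of all 33469 promoter windows of 300 bases. It also held 2 ONECUT matches (8.06% of windows hold at least 1), 1 C/EBP match (10.6%) and 1 TATA box (14.2%), the latter 52 bases before the start. The Cyp2c22 window held 2 C/EBP matches, 1 nuclear receptor element (16.2%) and a TATA box 197 bases before the start. None of the matches overlapped another. The Cyp1a2 window held 1 ONECUT match, 1 nuclear receptor element and 1 TATA box. The Cyp2a3 window held 1 C/EBP match, 1 HNF1 element (7.45%) and 1 TATA box. The aryl hydrocarbon receptor core, in 29.7% of windows, was not in any of these 4 windows. These are letters in a short window and were not measured as sites.

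Cyp2c22, the muricholic acid enzyme, was the one gene of several probes whose estimates all lay above 0, at 3 of 3 probes. As deposited, probe 1392 read 0.43, 0.25, 0.12 and 0.16 on arrays 1 to 4. These uncentred values were above 0 on every array, as for 0.981% of all probes. After centring probe 1392 read 1.31, -0.50, 0.85 and -0.71, and so parted by dye. The array medians parted by dye in the opposite direction, so the shared sign holds only before centring. Probe 421 read 0.36, -0.28, 0.25 and 0.27, so that array 2 alone lay below 0. Probe 756 read 0.40, -0.40, 0.38 and 0.09, again with array 2 alone below 0. After centring, probes 421 and 756 were likewise above 0 on arrays 1 and 3 and below 0 on arrays 2 and 4. The operation estimates were 0.24 ± 0.09 for probe 1392, 0.15 ± 0.09 for probe 421 and 0.11 ± 0.09 for probe 756 (SE, n = 4 arrays). If the base is 2, they correspond to 1.18-fold, 1.11-fold and 1.08-fold. Among all probes, 18 had a higher estimate than probe 1392.

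Cyp2c12 gave 4 probes with unlike values. Probe 372 read -0.13, -0.72, -0.27 and -0.24 as deposited, below 0 on every array, as did 5.94% of all probes. After centring it read 0.75, -1.47, 0.46 and -1.11, and so parted by dye. Its operation estimate was -0.34 ± 0.09 (SE, n = 4 arrays), the lowest of the 11. The deposited values of the other 3 probes parted by dye, being negative where Cy5 marked the ligated RNA and positive where Cy3 did. The array medians parted in the same way. Probe 1103 was the most extreme, at -1.31, 1.29, -1.01 and 1.24. After centring it alone kept that direction, at -0.43, 0.53, -0.28 and 0.37. Probe 1107 then parted the other way, at 0.30, -0.19, 0.58 and -0.41, and probe 1091 read -0.00023, -0.21, 0.29 and -0.38. The operation estimates were -0.08 ± 0.09 for probe 1091, 0.05 ± 0.08 for probe 1103 and 0.07 ± 0.09 for probe 1107. The estimates of Cyp2c12 thus spanned 0.41 over its probes, against 0.13 for Cyp2c22. The median span was 0.19 over the 79 genes with at least 3 probes, and 78 of them, Cyp2c12 included, spanned no more than Cyp2c12 did.

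**Figure D1:**
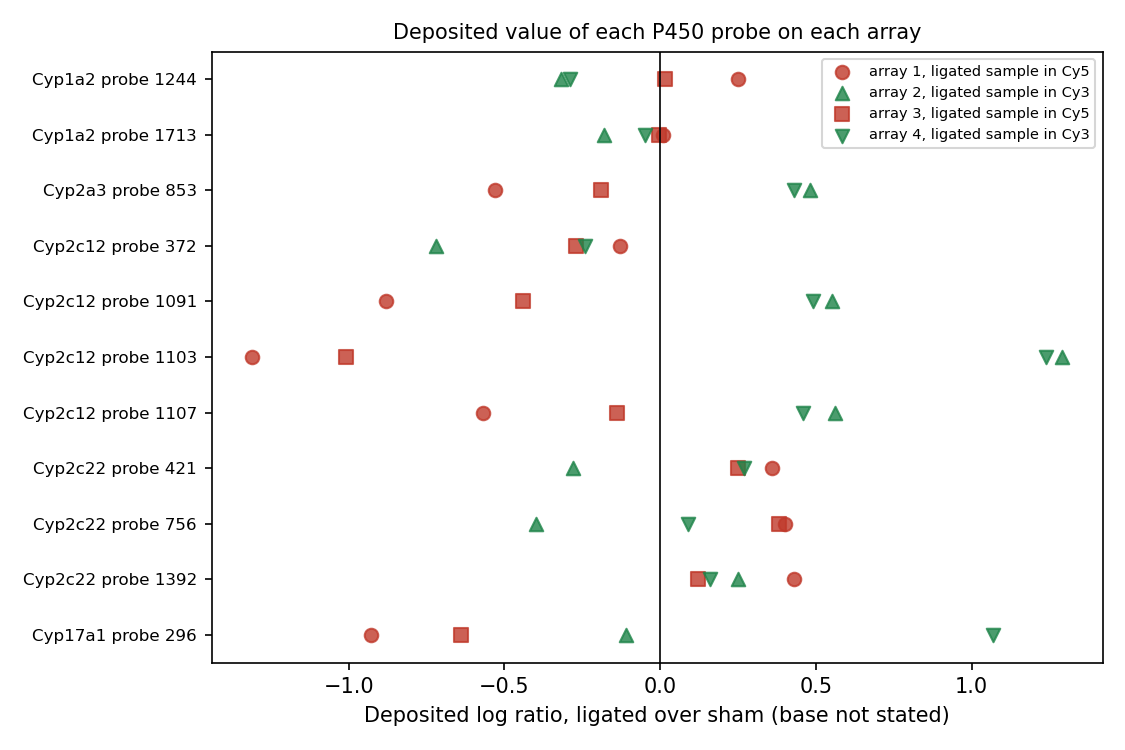
Deposited log ratio (horizontal axis, ligated over sham, base not stated) of each of the 11 probes on each of 4 arrays, with the dye of the ligated sample given by colour. Values are not centred. Cyp2c22 probe 1392 lies above 0 and Cyp2c12 probe 372 below 0 on 4 of 4 arrays, whereas 3 Cyp2c12 probes and Cyp2a3 part by dye, as the array medians do. After centring, probes 1392 and 372 part by dye as well.

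Cyp1a2, the constitutive liver enzyme of its family, lay close to 0. Probe 1713 read 0.0075, -0.18, -0.0049 and -0.048 as deposited, and probe 1244 read 0.25, -0.32, 0.016 and -0.29. Both probes were lower on the arrays with the ligated sample in Cy3 than on those with it in Cy5. Their operation estimates were -0.06 ± 0.08 and -0.09 ± 0.09 (SE, n = 4 arrays), and these 2 probes differed by less than either SE.

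Cyp2a3 had a single probe, 853, which read -0.53, 0.48, -0.19 and 0.43. These deposited values parted by dye in the direction of the array medians. After centring they were 0.34, -0.28, 0.54 and -0.44, and parted in the opposite direction. The operation estimate was 0.04 ± 0.08. Cyp17a1 also had a single probe, 296, which read -0.93, -0.11, -0.64 and 1.07. Array 4 stood above the other arrays, and after centring array 2 stood below them, at -0.87 against -0.05, 0.09 and 0.19. The estimate of Cyp17a1 was -0.16 ± 0.09 by limma's shared spread, but the SD of its own values around the fit was 0.54, the largest of the 11 probes (0.08 to 0.26 for the others).

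Of the 11 probes, 6 had an estimate above 0 and 5 below, with a median of 0.04 against -0.02 over all probes. An adjusted p under 0.05 in limma was reached by 1 of 11, Cyp2c12 probe 372, and by 5.73% of all probes. Without centring, without the dye term or after a dye curve per array, 0 of 11 reached it. Nothing is read from this count, because the genes were chosen with this contrast known. Pairing each array with the ligated sample in Cy5 with each in Cy3 gives 4 estimates per probe, each free of an even dye shift. All 4 were above 0 for Cyp2c22 probe 1392 (0.07 to 0.41), as for 11.6% of all probes. All 4 were below 0 for Cyp2c12 probe 372 (-0.50 to -0.18) and Cyp1a2 probe 1713 (-0.11 to -0.02), as for 26.1% of all probes. For Cyp17a1 the 4 pairs ran from -0.46 to 0.14.

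Probe position moved with several of these values. The array was divided into 16 blocks of 121 consecutive probe numbers. Block 3, which holds Cyp17a1, had a median centred value of -0.87 on array 2 and between -0.20 and 0.13 on the other arrays, and a median operation estimate of -0.29. Block 4, which holds Cyp2c12 probe 372 and Cyp2c22 probe 421, had -0.33 on array 2 and a median estimate of -0.14. The median estimates of the other blocks lay between -0.10 and 0.07. The array 2 value of Cyp17a1 was also -0.87, and the part of the block in it was not tested.

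A smooth curve of each array on the dye part of the probes, fitted within each block and called the block curve here, takes out such shifts. After it, Cyp2c22 had 0.33, 0.24, 0.30 and 0.40 on arrays 1 to 4 at probe 421, 0.24, 0.21, 0.26 and 0.31 at probe 756, and 0.41, 0.30, 0.15 and 0.26 at probe 1392. All 12 values were above 0, but they come from 3 probes of the same gene, chosen by this contrast. The curve takes out most of the dye part of each probe, which draws arrays of opposite dye together. Agreement of sign across dyes is thus largely built in, here and for Cyp2c12 probe 372 below. The estimates of probes 421, 756 and 1392 were 0.32 ± 0.04, 0.26 ± 0.04 and 0.28 ± 0.05. Cyp2c12 probe 372 moved to -0.17 ± 0.04, with -0.14, -0.21, -0.21 and -0.12 on the 4 arrays. Its other probes stayed at -0.07 ± 0.04, 0.06 ± 0.03 and 0.08 ± 0.04. Cyp17a1 changed sign, to 0.09 ± 0.04. Cyp1a2 lay at -0.01 ± 0.04 and -0.05 ± 0.04, and Cyp2a3 at 0.05 ± 0.04.

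After the curve, 4 of 11 probes had a limma adjusted p under 0.05, the 3 of Cyp2c22 higher and Cyp2c12 probe 372 lower, against 7.02% of all probes (3.67% higher and 3.36% lower). This too is the contrast by which the genes were chosen. With centring alone, 0 of 11 passed without replicate 1, 2 or 3, where 24, 48 and 12 of all 1936 probes did. Without replicate 4, 3 of 11 passed, as did 241 of all 1936 probes (39 higher and 202 lower). The 3 were Cyp2c12 probe 372 and Cyp17a1 lower and Cyp2c22 probe 1392 higher. Their estimates over the fits that each left out an array ran from -0.43 to -0.25, from -0.42 to 0.11 and from 0.12 to 0.35.

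**Figure D2:**
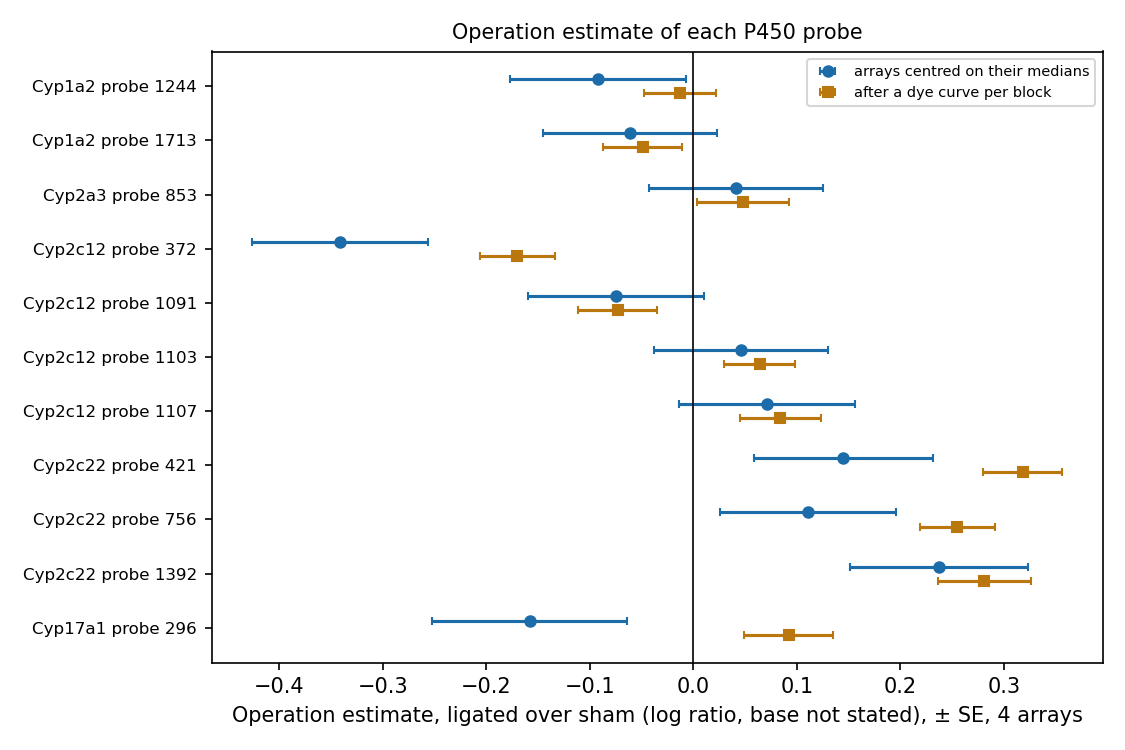
Operation estimate (horizontal axis, log ratio, ligated over sham, with bars of ± 1 SE over 4 arrays) of each of the 11 probes, after centring and after the block curve. Cyp2c22 lies above 0 in both, Cyp2c12 probe 372 moves from -0.34 to -0.17, and Cyp17a1 crosses from -0.16 to 0.09.

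The dye part of a probe, its mean centred log ratio of Cy5 over Cy3, does not depend on the operation and was not used to choose the genes. It was 1.03 and 0.87 for the Cyp1a2 probes, 0.96, 1.08 and 0.84 for Cyp2c22 probes 421, 756 and 1392, and 0.40 for Cyp2a3. Over the Cyp2c12 probes it ran from -0.40 at probe 1103 to 0.95 at probe 372, with 0.22 and 0.37 at probes 1091 and 1107. Cyp17a1 had 0.18. By limma 10 of the 11 dye parts had an adjusted p under 0.05, as did 82.6% of all probes, and Cyp17a1 did not (adjusted p = 0.0734). The dye parts of the Cyp2c12 probes spanned 1.35, compared with 0.24 for Cyp2c22 and a median span of 0.70 over genes with at least 3 probes. The probes annotated to Cyp2c12 therefore differed from each other in dye part as well as in operation estimate. Whether they bound the same mRNA was not tested.

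**Figure D3:**
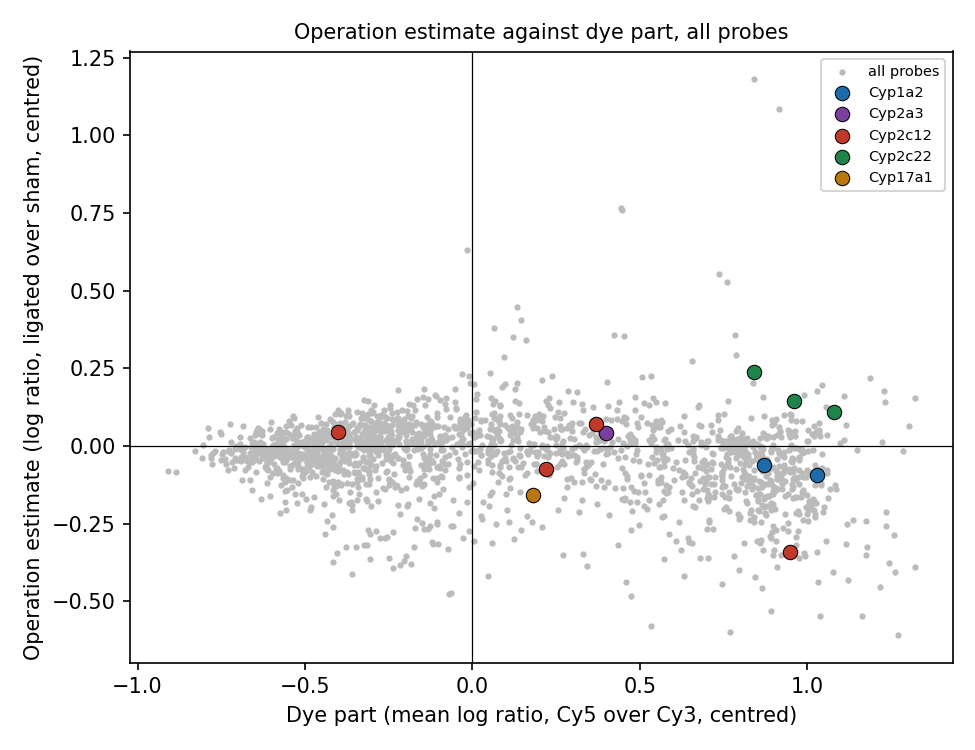
Operation estimate (vertical axis, ligated over sham) against dye part (horizontal axis, Cy5 over Cy3) of all 1936 probes in grey, both as centred log ratios, with the 11 probes in colour. Cyp1a2 and Cyp2c22 lie together at dye parts of 0.84 to 1.08 but on opposite sides of 0 in the operation estimate, and the 4 Cyp2c12 probes are spread from -0.40 to 0.95 in dye part.

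The genes whose values over the 4 centred arrays lay nearest to each enzyme, probes of a gene being averaged, were sought among 957 other genes by the root mean square difference. For Cyp1a2, Cyp2a3, Cyp2c12 and Cyp2c22 the 4 values part mainly by dye, whereas for Cyp17a1 array 2 stands apart. The Cyp2c12 values average probes that differed in dye part. Nearest to Cyp2c22 were Itih3, an inter-alpha-trypsin inhibitor heavy chain (0.101), and Orm1, the acute phase orosomucoid (0.132), against a median of 0.97 over all genes. Nearest to Cyp1a2 were the plasma iron carrier transferrin, Tf (0.0324), and apolipoprotein Apoc1 (0.0366). Cyp2a3 lay nearest to the carbonic anhydrase Car2 (0.0333) and the MAP kinase kinase Map2k2 (0.0462), and Cyp2c12 to Msx2, a homeobox factor (0.0587), and Ccs, a copper chaperone (0.0678). Nearest to Cyp17a1 were Fkbp3, a prolyl isomerase (0.0923), and the thyroid hormone receptor Thra (0.134), all of whose probes lie in block 3 as Cyp17a1 does.

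The 24 other P450 genes with a single symbol had 50 probes. Of these 39 had an estimate below 0 (78.0%, against 60.3% of all probes) and 11 above, with a median of -0.09 against -0.02 over all probes. After the block curve 27 were below 0 (54.0%, against 48.2% of all probes) and 23 above. The median was then -0.01 against 0.0024 over all probes, so that most of the lean to lower values was no longer seen. An unadjusted p under 0.05 by limma was reached by 14 of the 50, and by 277 of all 1936 probes. At an adjusted p under 0.05, 6 of the 50 fell and 0 rose, against 4.80% and 0.930% of all probes. The 6 were the bile acid enzymes Cyp8b1 (probe 1391) and Cyp7a1 (probe 889), the fatty acid and eicosanoid hydroxylases Cyp4f1 (probe 386) and Cyp4f6 (probe 436), Cyp4b1 (probe 275) and the epoxygenase Cyp2j3 (probe 426). Cyp4f6 probe 436 fell by 0.32 ± 0.08 (adjusted p = 0.00904), Cyp4b1 by 0.31 ± 0.09 (adjusted p = 0.0243) and Cyp2j3 probe 426 by 0.27 ± 0.09 (adjusted p = 0.0443). Cyp4f6 probes 198, 410 and 1378 had -0.23, -0.105 and 0.047 and did not pass (limma adjusted p = 0.105, 0.772 and 0.979). Nor did Cyp8b1 probe 422, at -0.21 (limma adjusted p = 0.181). Of the 6, all but the Cyp8b1 and Cyp7a1 probes lie in blocks 3 and 4. Without replicate 1, 2, 3 or 4, the number of P450 probes that passed was 1, 3, 0 or 11. Of all 1936 probes, 24, 48, 12 or 241 then passed.

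After the block curve 7 of the 50 fell and 2 rose, against 3.36% and 3.67% of all probes. Cyp4b1 and Cyp2j3 probe 426 no longer passed (-0.03 ± 0.04 and -0.12 ± 0.04, limma adjusted p = 0.794 and 0.0689). Cyp2j3 probe 1009 and Cyp7a1 probe 72, which had not passed on centred values, fell by 0.14 ± 0.04 and 0.21 ± 0.04 (limma adjusted p = 0.0487 and 0.0111). Cyp3a23-3a1, a steroid and drug hydroxylase that pregnane X receptor ligands induce, fell by 0.18 ± 0.03 (limma adjusted p = 0.00773). As deposited it was below 0 on every array, at -0.11, -0.39, -0.11 and -0.37, as were 5.94% of all probes. Those values are not centred, and the array medians parted by dye, so nothing is read from the shared sign. On centred values Cyp3a23-3a1 had -0.25 ± 0.08 (limma adjusted p = 0.0663). The probes that rose were Cyp2c23 probe 1344 (0.22 ± 0.04, adjusted p = 0.00462), an arachidonic acid epoxygenase, and Cyp2e1 probe 1234 (0.15 ± 0.04, adjusted p = 0.0359), the ethanol-inducible form. The other 2 Cyp2c23 probes had 0.02 and 0.06 after the curve, and the other 6 Cyp2e1 probes ran from -0.06 to 0.10, and by limma 0 of these passed. Of the drug oxidisers Cyp2d2 and Cyp2d4 no probe passed before or after the curve. On centred values Cyp2d2 had -0.16, and Cyp2d4 had -0.20 and -0.09.

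**Figure D4:**
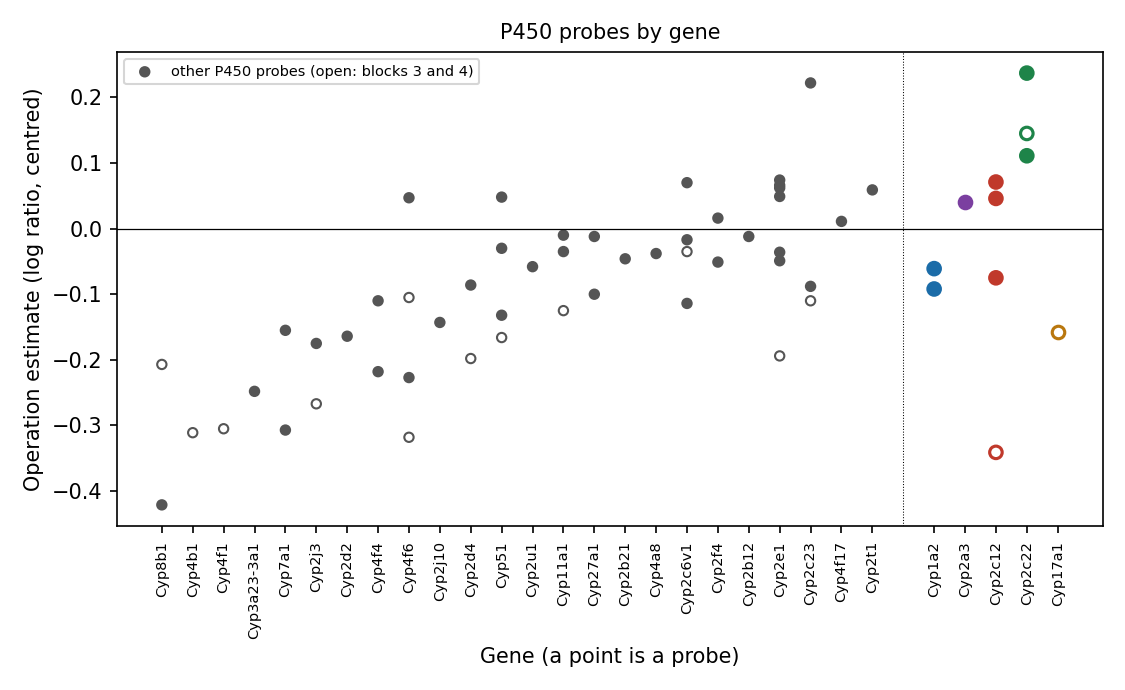
Operation estimate (vertical axis, centred log ratio, ligated over sham) of every P450 probe with a single symbol, by gene, with the 24 other genes on the left ordered by mean and the 5 genes described here on the right. Open points lie in blocks 3 and 4. Of the 50 other probes 39 lie below 0 (78.0%, against 60.3% of all probes), and the 3 Cyp2c22 probes lie above 0. After the block curve 27 of the 50 were below 0 (54.0%, against 48.2% of all probes).

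Among the redox partners and heme supply genes, 7 of 21 listed genes were measured, with 19 probes. Their median estimate was -0.09, against -0.02 over all probes. By limma 2 probes fell and 0 rose, against 4.80% and 0.930% of all probes. Pgrmc1, a heme-binding membrane protein that associates with P450 enzymes, fell by 0.34 ± 0.09 (adjusted p = 0.00562), and by 0.21 ± 0.04 after the block curve (adjusted p = 0.00474). As deposited, and so not centred, it was -0.24, -0.31, -0.30 and -0.48, below 0 on every array, as were 5.94% of all probes. Without replicate 1 or 3 it had -0.39 and -0.28 and did not pass (adjusted p = 0.234 and 0.999). Cytochrome b5, Cyb5a, fell by 0.35 ± 0.09 at probe 264 (block 3, limma adjusted p = 0.00705). The curve ended this call (-0.0070 ± 0.04, limma adjusted p = 0.941), as did leaving out replicate 1, 2 or 3 (-0.39, -0.14 and -0.31). Without replicate 1 or 3 the median SE over all probes was 0.144, against 0.084 with all 4 arrays, so calls there can end without a smaller estimate. Cyb5a probes 140, 408, 440, 1342 and 1406 had -0.08, -0.18, -0.19, 0.099 and -0.10 and did not pass. The P450 reductase Por had 5 probes between -0.11 and 0.06, and none passed.

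Of the 37 listed regulators of P450 genes 11 were measured, with 17 probes. Their median estimate was -0.07, against -0.02 over all probes. By limma 2 probes rose and 1 fell, against 0.930% and 4.80% of all probes. Both that rose belong to Nr0b2, the small heterodimer partner, which represses other nuclear receptors. They stood at 1.08 ± 0.08 and 1.18 ± 0.08, several times the size of any estimate for the 5 enzymes. The glucocorticoid receptor Nr3c1 fell at probe 340 in block 3, by 0.35 ± 0.09 (limma adjusted p = 0.00705). The curve ended this call (-0.09 ± 0.05, limma adjusted p = 0.338), as did leaving out replicate 1, 2 or 3 (-0.30, -0.15 and -0.39). Nr3c1 probes 217 and 1361 had -0.04 and -0.13 and did not pass (limma adjusted p = 0.991 and 0.577). Ahr, the aryl hydrocarbon receptor that induces Cyp1a2, had -0.11 ± 0.08 and did not pass (adjusted p = 0.744). Nor did Onecut2 (-0.05 ± 0.08) or the growth hormone effector Stat5b (0.07 ± 0.08).

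Over all 1936 probes 5.73% passed by limma, 277 had an unadjusted p under 0.05, and the median estimate was -0.02. In the list of sex-dependent and growth hormone response genes 3 of 23 were measured, with 1 probe each. By limma 0 passed, with 2 at an unadjusted p under 0.05. The 3 genes were Ghr, the growth hormone receptor, at -0.08 ± 0.09, Igf1 at -0.18 ± 0.08 and Igfals, the carrier subunit of circulating IGF1, at -0.18 ± 0.09. After the block curve Igfals fell by 0.16 ± 0.04 (adjusted p = 0.0368). Of 30 listed genes of steroid synthesis and inactivation 4 were measured, with 6 probes and a median of -0.05, and by limma 0 passed, with 1 at an unadjusted p under 0.05. The highest and lowest of these were Hsd11b1, which regenerates glucocorticoid, at 0.02 ± 0.09, and Tspo, a mitochondrial cholesterol-binding protein, at -0.21 ± 0.08 (adjusted p = 0.162). Of 48 listed genes of other drug oxidation and conjugation 4 were measured, with 5 probes and a median of -0.04, and by limma 0 passed, with 1 at an unadjusted p under 0.05. Fmo1, a flavin monooxygenase, had 0.12 ± 0.08 and Mgst1 probe 377, of a microsomal glutathione transferase, had -0.18 ± 0.08.

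Of the hepatocyte markers 5 of 14 genes were measured, with 6 probes and a median of -0.11, against -0.02 over all probes. By limma 0 passed, against 5.73% of all probes. An unadjusted p under 0.05 was reached by 2, and by 277 of all 1936 probes. The most negative was transthyretin, Ttr, at -0.24 ± 0.08 (adjusted p = 0.0814), and it passed at -0.17 ± 0.04 after the block curve (adjusted p = 0.0293). Of 30 markers of other liver cells and blood 3 genes were measured, with 6 probes and a median of 0.12. By limma 1 rose (Col1a1 probe 1306) and 1 fell (Pf4 probe 292, in block 3), against 0.930% and 4.80% of all probes. The second probes of these genes did not pass. Col1a1 probe 1183 had 0.095 ± 0.08 (limma adjusted p = 0.812) and Pf4 probe 78 had 0.14 ± 0.08 (limma adjusted p = 0.492), the latter opposite in sign to probe 292. Neither of the probes 1306 and 292 passed without replicate 1 or 3 (0.40 and 0.28 for Col1a1, -0.33 and -0.28 for Pf4), nor probe 292 without replicate 2 (-0.04). After the block curve Col1a1 probe 1306 passed (0.36 ± 0.06, limma adjusted p = 0.00474) and Pf4 probe 292 did not (-0.05 ± 0.03, limma adjusted p = 0.536). Col1a1 probe 1183 and Pf4 probe 78 then had 0.11 and 0.065 and did not pass. The part of any shift in cell makeup in the values of the 5 enzymes was not tested.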

How the data were processed

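Values are the deposited log ratios of the 2 channels, as the authors gave them, 1 per probe and array, with 0 columns left unused. Not given in the sources used here are the base, the scanner, the background correction and how values were normalized. Of 1936 probes, 1432 had 1 gene symbol (958 genes), 19 several and 485 none. Symbols were updated by gene ID through the RefSeq table of GRCr8, in which 1429 matched. Arrays were centred on their medians, and limma 3.58.1 (lmFit, then eBayes; R 4.3.3) fitted the operation and the dye per probe, with Benjamini-Hochberg adjustment over all probes and a threshold of 0.05. There were 2 residual degrees of freedom and a prior of 76.2. The fit was tested on simulated data. The dye curve was a robust loess (span 0.75, degree 1) of each array on the dye part of the probes, per array or per block.

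The genes, the lists, the block size and the curves were chosen with earlier results of these data known. Named were all probes of the 5 genes, the 2 nearest genes to each, and, in each list, probes that passed and some further genes. The further genes were not always those with the largest estimates. Among regulators, Cebpd (-0.11) was left out whereas Onecut2 (-0.05) and Stat5b (0.07) were named. Further probes and the deposited values of Pgrmc1 and Cyp3a23-3a1 were chosen after their values were seen. Other settings were no centring, equal array scale, no dye term, the Cy5 over Cy3 reading, a robust prior, averaged probes and leaving out each array.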

Additional observations from a re-analysis of the deposited data

Results flagged for a closer look

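For Cyp2c22 probe 421, array 2 stood apart from the others in the deposited values, at -0.28 against 0.25 to 0.36, a gap of 0.833 of the whole range, which is past Dixon's limit for 4 values. Chance alone passes that limit in about 5% of groups, and the deposited, centred and curve-corrected values of 11 probes were examined. The probe lies in block 4, whose median centred value on array 2 was -0.33, and after the block curve array 2 read 0.24, against 0.30 to 0.40 on the other arrays. The part of the block in this value was not tested.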

How the results depend on the processing

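The 11 operation estimates moved by less than the SD of the probe's own values without centring, after either dye curve, without the dye term, with equal array scale, with a robust prior and without any 1 array. Read as Cy5 over Cy3, Cyp2c12 probe 372 turned to 0.95, and the others moved to 1.03 and 0.87 (Cyp1a2 probes 1244 and 1713), 0.40 (Cyp2a3), 0.22, -0.40 and 0.37 (Cyp2c12 probes 1091, 1103 and 1107) and 0.96, 1.08 and 0.84 (Cyp2c22 probes 421, 756 and 1392); these are the dye parts, and Cyp17a1 moved by less than its SD. Over all probes 111 passed by limma. The count was 3 without centring, 7 after the dye curve per array, 136 after the block curve, 0 without the dye term (5 at an unadjusted p under 0.05), 1599 as Cy5 over Cy3, 62 with equal scale, 67 with a robust prior and 40 of 958 averaged genes, and ran from 12 to 241 without 1 array. Of the other P450 probes, 6 passed by limma, against 0 without centring, after the dye curve per array and without the dye term, 44 as Cy5 over Cy3, and 0 to 11 without 1 array. Prior degrees of freedom fell from 76.2 to 2.60 without centring. Of the 11 probes 0 passed after the dye curve per array. No paired analysis was possible because no replicate number is shared between groups: each array already sets ligated against sham RNA, and the 4 arrays form 1 group.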
